A study of Homo sapiens with 6 samples.

Results

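The mitosis and G2 genes are 53 genes, named one by one, whose products drive cells from the end of DNA replication through chromosome segregation and division. All 53 were present in both count tables, of 14711 genes that the 2 tables share (15945 genes for A375 and 15429 for PC9). The rule lists genes by name and sets no threshold on a measured value, but the list was drawn up with earlier results of these data known. For this description they were sorted by role into 10 kinases, cyclins and partners of mitotic entry, 13 spindle and microtubule proteins, 3 kinesin motors, 6 kinetochore and centromere proteins, 6 checkpoint and ubiquitin ligase genes, 3 genes of the chromosomal passenger complex, 7 of chromosome structure, 3 of cytokinesis and 2 of the nuclear envelope.

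Transcripts were counted by unique molecular identifiers (UMIs) in single cells of 19 populations of 2 human cancer cell lines made resistant to a targeted drug by stepwise dose escalation. In A375, a melanoma line with the BRAF-V600E mutation, cells adapted to the BRAF inhibitor dabrafenib at 30, 60, 125, 250 and 500 nM and at 1, 2 and 4 µM were set against untreated cells. In PC9, a lung adenocarcinoma line with an activating EGFR deletion, cells adapted to the EGFR inhibitor osimertinib at 8, 16, 32, 75, 150, 300 and 600 nM and at 1.2 µM, and persister cells that survived acute exposure to 1.2 µM for 9 days, were set against untreated cells. Each population was 1 culture, marked with a lipid tag before its line was pooled, so no comparison between populations has a replicate and no p-value is given.

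The tables hold 8505 A375 cells with 87053189 UMIs and 11258 PC9 cells with 77210300 UMIs. Median depth was 7337 to 9804 UMIs per cell in the A375 populations and 5776 to 7968 in PC9. The fewest cells, 379, were in the 125 nM dabrafenib population, where a count of 0 allows up to 1.02 counts per 1000000 UMIs (CPM). Cells with 20% or more mitochondrial UMIs were 10.6% of the 4 µM and 8.71% of the 125 nM population, against 0.796% of untreated A375 cells, and 0 PC9 cells reached that share. The 8 melanocyte markers summed to 214 CPM at 4 µM dabrafenib, against 454 CPM in untreated A375 cells. Among them SOX10 was at 38.2 CPM against 208 CPM and S100B at 49.9 CPM against 164 CPM, while MITF was at 91.1 CPM against 73.4 CPM and DCT at 31.0 CPM against 6.55 CPM. In PC9, 4 of the 8 are in the table and summed to 90.1 CPM in persisters, against 37.1 CPM in untreated cells. MITF made 83.5 and 33.5 CPM of these sums, and SOX10 was at most 0.412 CPM. The 8 epithelial markers summed to 6603 to 8095 CPM in PC9. In A375 they summed to 864 CPM at 4 µM, against 485 CPM in untreated cells, of which KRT18 made 788 and 435 CPM, and EPCAM was at most 2.14 CPM in any A375 population. Of 6 immune markers, 3 are in the A375 table and summed to 32.5 CPM at 30 nM and 23.0 CPM at 4 µM, against 12.2 CPM in untreated cells. CD68 made 30.4, 22.8 and 8.83 CPM of these sums, and PTPRC was at most 0.882 CPM in either line. In PC9, 2 of the 6 are in the table, with CD68 at 19.4 CPM in persisters, against 30.2 CPM in untreated cells. Endothelial markers summed to at most 5.56 CPM in A375 and 15.1 CPM in PC9, and 6 of 6 fibroblast markers to 118 CPM at 30 nM and 97.8 CPM at 4 µM dabrafenib, against 12.6 CPM in untreated A375 cells. The part of these markers and of mitochondrial share in the results was not tested beyond the settings named below.

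A dividing cell switches these genes on late in S phase and in G2, and degrades many of their products as it leaves mitosis. Cyclin B (CCNB1, CCNB2) binds the kinase CDK1 to start mitosis, while Polo-like and Aurora kinases (PLK1, AURKA, AURKB) build the spindle and correct its attachments. The spindle checkpoint (BUB1, TTK) holds back the anaphase-promoting complex until its activator CDC20 is released, and UBE2C then helps to mark cyclin B for destruction. In G1, and in resting cells, complexes that contain the MuvB core keep such genes off through a promoter element called the cell cycle genes homology region (CHR), and CCAAT boxes bound by NF-Y add to their activity in G2.

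Promoter sequence was read for 44 of the 53 members, which have 53 windows in the RefSeq table (GRCh38.p14), each from 250 bases before to 50 bases after an annotated start. TPX2, AURKA, CDCA2, BUB3, ANP32E, TTK, HMGB2, UBE2C and BIRC5 were not matched. The stretches below run over the 150 bases before the start and show how the motifs are spaced in promoters of genes that the results turn on, with RANGAP1 as a stretch without them. They were chosen after the values were seen. Capitals mark CCAAT, its reverse complement ATTGG, and the CHR-like letters, which are TTTGAA, its reverse complement TTCAAA and the related run TTCGAA. CCNB1 is at chr5:69167000-69167149 (+), CCNB2 at chr15:59104996-59105145 (+), PLK1 at chr16:23678739-23678888 (+), CDC20 at chr1:43358831-43358980 (+), MKI67 at chr10:128126424-128126573 (−), CENPF at chr1:214603045-214603194 (+) and RANGAP1 at chr22:41302370-41302519 (−).
CCNB1: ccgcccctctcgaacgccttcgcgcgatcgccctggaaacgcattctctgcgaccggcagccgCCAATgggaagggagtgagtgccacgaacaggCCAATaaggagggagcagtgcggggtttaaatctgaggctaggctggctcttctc
CCNB2: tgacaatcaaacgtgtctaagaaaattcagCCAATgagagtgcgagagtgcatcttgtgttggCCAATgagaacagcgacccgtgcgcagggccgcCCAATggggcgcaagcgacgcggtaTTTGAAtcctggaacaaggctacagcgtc
PLK1: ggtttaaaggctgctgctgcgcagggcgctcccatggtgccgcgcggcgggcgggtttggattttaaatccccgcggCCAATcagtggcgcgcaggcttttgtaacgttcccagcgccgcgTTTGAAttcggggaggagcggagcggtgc
CDC20: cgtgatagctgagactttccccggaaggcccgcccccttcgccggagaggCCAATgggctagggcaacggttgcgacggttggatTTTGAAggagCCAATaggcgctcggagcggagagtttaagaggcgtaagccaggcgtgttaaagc
MKI67: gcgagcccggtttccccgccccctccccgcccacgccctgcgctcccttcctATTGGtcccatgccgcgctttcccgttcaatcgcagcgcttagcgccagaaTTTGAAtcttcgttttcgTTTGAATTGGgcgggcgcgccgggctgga
CENPF: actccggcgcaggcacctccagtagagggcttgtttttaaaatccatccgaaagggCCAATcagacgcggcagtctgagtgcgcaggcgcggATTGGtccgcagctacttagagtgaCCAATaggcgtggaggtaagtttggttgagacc
RANGAP1: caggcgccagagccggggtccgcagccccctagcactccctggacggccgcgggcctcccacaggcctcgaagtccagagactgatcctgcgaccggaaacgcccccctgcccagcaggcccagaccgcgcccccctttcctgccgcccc

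In CCNB2, PLK1 and MKI67 the CHR-like letters began at position −29, counted from the base before the start as −1. MKI67 has a second match at −47, and its match at −29 overlaps the ATTGG at −24. CDC20 has the letters at −65, with CCAAT on either side at −100 and −55. CCNB1 has CCAAT at −87 and −55 and none of the CHR-like letters in its window. CENPF has CCAAT or ATTGG at −94, −58 and −33, and its CHR-like match lies after the start, at position 41. RANGAP1 had no match in the stretch shown, while a second annotated start of the gene has TTCAAA at −29. Other stretches were read the same way, each before the first listed start, and are not shown. Of these, AURKB and G2E3 had neither motif. CDK1, TOP2A, CCNA2 and BUB1 had CCAAT or ATTGG without CHR-like letters, and CKAP5 had both. Whether the motifs go with the ratios of the members was not tested.

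Over the 44 members, 34 (77.3%) had CHR-like letters, against 19.5% of the 27305 genes in the promoter table and 16.4% of its 12662 genes that are in either count table. CCAAT or ATTGG was found in 32 members (72.7%), against 39.7% and 42.7%. Both motifs occurred in 28 members (63.6%), against 9.02% of all genes in the table, and 6 members had neither. Of 59 other G2 and mitosis genes, 49 were matched and 35 of them (71.4%) had CHR-like letters. Of 41 S-phase genes, 31 were matched, and 5 (16.1%) had CHR-like letters while 23 (74.2%) had CCAAT or ATTGG. The CHR-like share thus separated the members from S-phase genes and the CCAAT share did not. Both strands were searched, and a match is a run of letters, not a bound site.

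**Figure D1:**
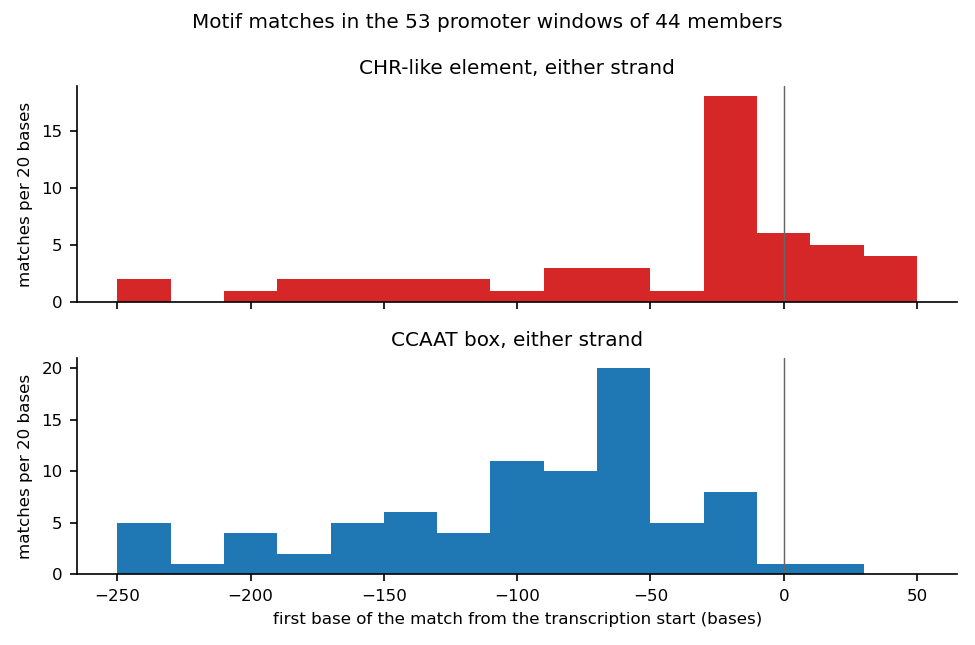
Number of motif matches (vertical axis) by distance in bases from the annotated start (horizontal axis, bins of 20 bases) in the 53 promoter windows of 44 members. Of 52 CHR-like matches, 18 in 16 members begin between −30 and −11, and 41 of 83 CCAAT or ATTGG matches in 28 members lie between −110 and −51.

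The first question was whether members differ between cells adapted to dabrafenib and untreated A375 cells. At 4 µM every member was lower than in untreated cells, and 43 of 53 were lower by 2-fold or more. The median log2 ratio, taken on log2(CPM + 1), was −1.41 over the members and −0.17 over all measured genes. A member counted as 2-fold lower or higher when it differed by 1 or more on that log2(CPM + 1) scale, while folds printed for single genes are plain ratios of CPM. Lowest and highest members are ranked on the log2(CPM + 1) scale, so the order can differ from that of the folds. Measured means 10 CPM and 20 UMIs or more in whichever population was higher, and 8.89% of all measured genes were 2-fold or more lower in the same comparison. No member was 2-fold higher, against 5.59% of all measured genes. RANGAP1 was the one member past 2-fold in CPM (2.01-fold) that fell short on the log2(CPM + 1) scale, at −0.98. All 53 counting intervals lay below 1, and these 95% intervals cover counting error only. The share of all measured genes with intervals on 1 side of 1 is not given, here or in the comparisons below.

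The kinases and cyclins of mitotic entry were among the members lower at 4 µM. Gene positions are those of GENCODE v29 on GRCh38. CDK1 (chr10:60778331-60794852), the kinase that drives entry into mitosis, was at 66.9 CPM in untreated cells and at 27.1, 35.0, 8.51, 23.3, 19.9, 17.9, 19.1 and 17.9 CPM at 30, 60, 125, 250 and 500 nM and 1, 2 and 4 µM. CCNB1 (chr5:69167010-69178245), its cyclin, was at 179 CPM in untreated cells and at 92.0, 88.0, 26.9, 45.9, 72.2, 81.4, 68.0 and 79.2 CPM in the same dose order. Both genes were lowest at 125 nM, and neither reached its untreated level at any dose. CDK1 was 3.73-fold lower (3.13 to 4.48) at 4 µM and CCNB1 2.26-fold lower (2.07 to 2.46). CCNB2 was 2.11-fold lower, CCNA2, the cyclin of S phase and G2, 2.79-fold lower, and PLK1 2.47-fold lower. AURKA, the spindle pole kinase, was 2.82-fold lower. Of the 10 genes in this role 9 were 2-fold lower (median log2 ratio −1.29), and CKS2, a small CDK-binding protein, was at 122 CPM against 228 CPM.

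All 6 kinetochore and centromere genes were 2-fold lower at 4 µM, and their median log2 ratio was −1.61. CENPF (chr1:214603195-214664588), a large kinetochore protein that accumulates in G2, was at 593 CPM in untreated cells and at 238, 317, 111, 222, 173, 177, 154 and 174 CPM from 30 nM to 4 µM, which was 3.41-fold lower (3.22 to 3.61) at 4 µM. NUF2, of the complex that binds spindle microtubules, was at 34.0 CPM against 121 CPM. The 3 passenger complex genes were 2-fold lower too. AURKB, the kinase of that complex, was 2.95-fold lower, BIRC5 (survivin) 2.44-fold lower, and CDCA8 (borealin) 3.96-fold lower (3.07 to 5.18).

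Genes of chromosome structure were lower in 7 of 7 cases. TOP2A, the topoisomerase that untangles sister chromosomes, was at 89.4 CPM against 246 CPM, and MKI67, the coat protein of mitotic chromosomes, at 82.9 CPM against 264 CPM. The folds were 2.75 (2.54 to 2.98) and 3.18 (2.93 to 3.46). Of the checkpoint and ubiquitin ligase genes 4 of 6 passed. UBE2C, the ubiquitin-conjugating enzyme of the anaphase-promoting complex, was at 49.4 CPM at 4 µM, against 181 CPM in untreated cells, and CDC20 at 25.9 CPM, against 71.8 CPM. BUB3, a checkpoint protein with other roles outside mitosis, was 1.59-fold lower (94.7 CPM against 150.2 CPM), and G2E3, a ubiquitin ligase, was at 28.8 CPM against 46.2 CPM.

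Spindle proteins had the widest range of log2 ratios of any role at 4 µM, from −2.38 to −0.41, with 8 of 13 lower by 2-fold. CKAP2L had the lowest ratio of all members, at 6.42 CPM against 37.7 CPM, 5.87-fold lower (4.40 to 8.00), and NUSAP1, a microtubule-bundling protein, was 3.73-fold lower. TPX2, the activator of AURKA, was at 83.0 CPM at 4 µM, against 217 CPM in untreated cells. CKAP5, a microtubule polymerase that also acts in interphase, was only 1.33-fold lower (97.9 CPM against 131 CPM) and GAS2L3 1.48-fold lower. GAS2L3 was the one member above its untreated level at any dabrafenib dose, with 57.9 CPM at 250 nM and 52.8 CPM at 500 nM, against 46.5 CPM in untreated cells. The 3 kinesins were 2-fold lower, and 2 of 3 cytokinesis genes were, with KIF23 at 57.2 CPM against 110.2 CPM. Of the nuclear envelope genes, TMPO was at 55.9 CPM against 175 CPM, while LBR (lamin B receptor) had the ratio nearest to 1 of all members (47.0 CPM against 61.7 CPM, 1.31-fold lower). TUBB4B and HMGB2 have close copies in the genome, and how reads shared with them were counted is not given in the sources used here.

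Along the dose series, the number of members 2-fold or more lower was 21, 14, 47, 44, 40, 41, 43 and 43 of 53 at 30, 60, 125, 250 and 500 nM and 1, 2 and 4 µM. The share of all measured genes called lower was 4.97%, 1.07%, 6.44%, 5.45%, 6.86%, 8.74%, 9.63% and 8.89% at these doses. No member was 2-fold higher at any dose, against 4.03% of all measured genes at 30 nM. The member median was −0.94, −0.93, −2.25, −1.54, −1.30, −1.28, −1.47 and −1.41. The 2 lowest doses thus held an intermediate level and 125 nM the lowest one, with no steady trend above it. All 8 comparisons share the same untreated population.

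At 30 nM the member median of −0.94 lay close to the cut of −1, and the count of 21 moved with the settings. Without cells of more than 2 times the median UMIs, 12.4% of that population, it was 36, as the mean over cells it was 37, and with a pseudocount of 5 CPM it was 13. The share of all measured genes at these settings is not given, so these counts cannot be set against it. CKAP2L (11.6 CPM against 37.7 CPM), KIF11, the motor that pushes spindle poles apart (35.9 CPM against 91.0 CPM), CENPF and CDC25C, the phosphatase that activates CDK1 (5.70 CPM against 15.4 CPM), had the lowest ratios. TUBB4B, GAS2L3, PSRC1 and G2E3 were 1.13- to 1.28-fold lower. CDK1 (2.47-fold), AURKB (2.18-fold), UBE2C (2.34-fold), TOP2A (2.19-fold), MKI67 (2.28-fold) and CENPF (2.49-fold) were also past 2-fold at 30 nM. CCNA2 was 2.03-fold lower in CPM but at −0.99 on the log2(CPM + 1) scale, and was not called. CCNB1, AURKA and TPX2 were 1.94- to 1.95-fold lower, PLK1 1.80-fold, BIRC5 1.65-fold, CCNB2 1.61-fold and CDC20 1.49-fold lower. The interval of PSRC1 (0.975 to 1.53) included 1, the one such case among the 53 members at 30 nM.

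At 125 nM the entry kinases and cyclins were lower in 10 of 10 cases, with a median log2 ratio of −2.44. MKI67 was at 25.9 CPM at 125 nM, against 264 CPM in untreated cells, PLK1 at 7.49 CPM against 64.1 CPM and AURKB at 7.83 CPM against 57.2 CPM. KIF20B, a kinesin of late mitosis, stood at 88.1 CPM, against 150.3 CPM, and BUB3 at 94.9 CPM, against 150.2 CPM. The members below 2-fold at that dose were BUB3, CKAP5, G2E3, KIF20B, KIF23 and LBR.

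**Figure D2:**
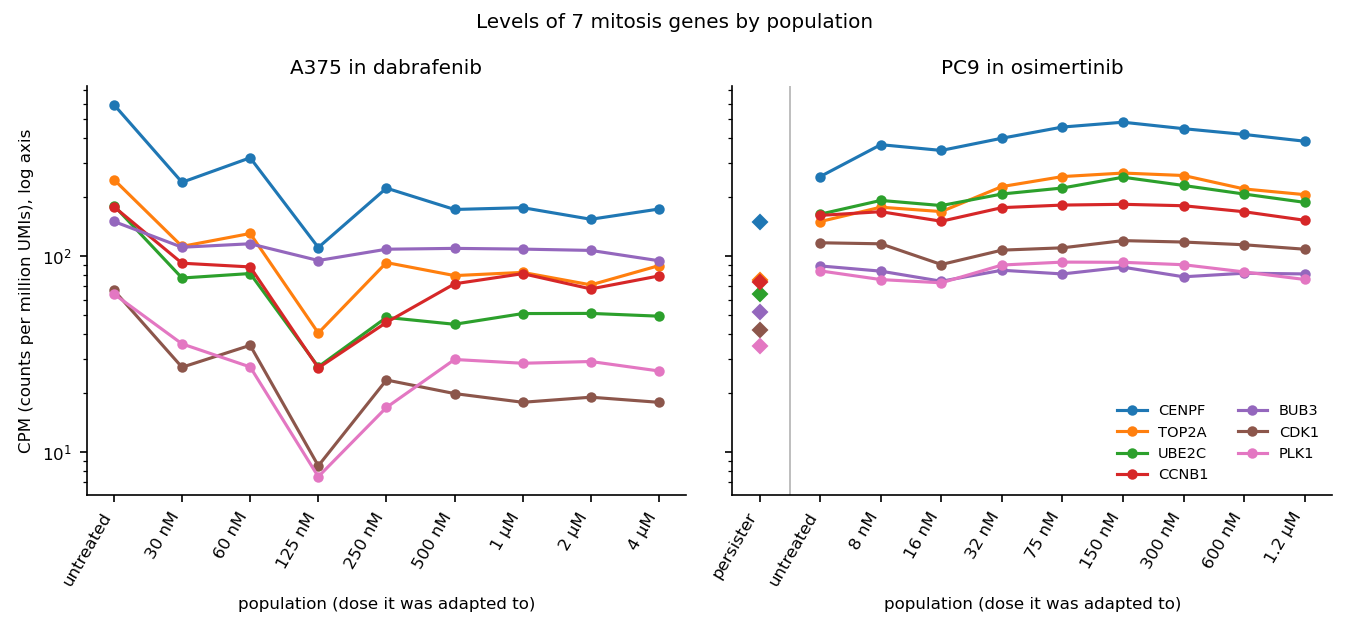
Level in CPM (vertical axis, log scale) of CENPF, TOP2A, UBE2C, CCNB1, BUB3, CDK1 and PLK1, across the A375 populations from untreated to 4 µM dabrafenib and the PC9 populations from untreated to 1.2 µM osimertinib, with the persisters left of untreated cells behind a vertical line. Each point is 1 culture. In A375 CDK1 lies between 8.51 and 35.0 CPM in adapted populations, against 66.9 CPM in untreated cells, while in PC9 it lies between 90.6 and 120 CPM in adapted populations and at 42.0 CPM in persisters.

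Cells adapted to osimertinib were the second comparison, and here the members stayed near their untreated level. At each of the 8 doses 0 of 52 measured members were 2-fold lower and 0 were 2-fold higher. All measured genes gave 1.77%, 1.97%, 2.43%, 3.1%, 3.47%, 3.83%, 3.8% and 3.86% lower from 8 nM to 1.2 µM, and 3.15% higher at 8 nM and 6% at 1.2 µM. DLGAP5 at 150 nM came closest, with 149.7 CPM against 74.5 CPM in untreated cells, which is 2.01-fold higher in CPM (1.83 to 2.20) and 0.998 on the log2(CPM + 1) scale. Member medians ran 0.02, −0.08, 0.08, 0.09, 0.19, 0.15, −0.01 and −0.08. PSRC1 was below the minimum (5.27 CPM at 1.2 µM, against 7.96 CPM in untreated PC9 cells). CDK1 was at 117 CPM in untreated PC9 cells and at 116, 90.6, 107, 110.2, 120, 118, 114 and 108 CPM from 8 nM to 1.2 µM. CCNB1 was at 161 CPM in untreated cells and at 168, 151, 177, 182, 184, 181, 168 and 152 CPM in that order. At 1.2 µM the intervals of both genes included a ratio of 1.

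Smaller differences ran in both directions at 1.2 µM, where 17 intervals lay below 1 and 13 above it. The share of all measured genes with such intervals is not given, so these counts cannot be set against it. CENPF was at 255 CPM in untreated cells and at 370, 346, 399, 456, 482, 447, 418 and 386 CPM from 8 nM to 1.2 µM, 1.51-fold higher (1.44 to 1.60) at 1.2 µM. DLGAP5, a spindle-stabilising protein, was at 116 CPM at 1.2 µM, against 74.5 CPM in untreated cells, CDC25C at 47.7 CPM, against 29.4 CPM, and TOP2A at 206 CPM, against 150.0 CPM. The CENPF level was above untreated cells at every osimertinib dose. Its log2 ratio at 1.2 µM was 0.60 over all cells, 0.92 in cells outside the authors' cell table and −0.26 in those listed there. TOP2A was at 0.45 over all cells and −0.54 in listed ones. These listed-cell ratios rest on 169 untreated cells and are given without counting intervals, so a change of direction cannot be claimed. In listed cells DLGAP5 was at 27.6 CPM at 1.2 µM, against 45.1 CPM in untreated cells, and CDC25C at 11.4 CPM, against 5.31 CPM. Of the 40 members measured in listed cells 0 had an interval above 1, so the CDC25C difference was within counting error. LBR was the lowest member, at 142 CPM in untreated cells and at 87.2, 82.5, 100.3, 101, 103, 105, 99.5 and 94.1 CPM by dose, 1.51-fold lower (1.37 to 1.65) at 1.2 µM. TUBB4B, a beta-tubulin, was at 370.5 CPM against 555 CPM, and CDCA8 was 1.46-fold and TMPO 1.41-fold lower. CDC20 was at 67.2 CPM against 91.1 CPM, while its partner enzyme UBE2C was at 188 CPM against 164 CPM. At 8 nM, LBR was 1.62-fold lower (1.47 to 1.79), TUBB4B 1.24-fold, GTSE1 1.21-fold and RANGAP1 1.18-fold lower, and CENPF 1.45-fold, GAS2L3 1.33-fold, NUSAP1 1.27-fold and CDC25C 1.24-fold higher.

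Among the genes followed in every comparison, the remaining ones differed by 1.16-fold or less at 1.2 µM, and at 8 nM all of them but CENPF differed by 1.18-fold or less. AURKA and AURKB were at 85.8 and 82.4 CPM, against 74.0 and 88.2 CPM in untreated PC9 cells. MKI67 was at 207 CPM against 235 CPM, BIRC5 at 106 CPM against 119 CPM, TPX2 at 209 CPM against 233 CPM and PLK1 at 76.0 CPM against 84.1 CPM. CCNA2 and CCNB2 were at 73.7 and 58.1 CPM, against 78.1 and 63.3 CPM, with intervals that included 1.

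Persisters formed the third comparison, and in them the members were low. Against untreated PC9 cells 36 of 52 measured members were 2-fold or more lower and 0 higher, with a median log2 ratio of −1.15, where 9.63% of all measured genes were lower and 10.6% higher. Every interval of these 52 lay below 1. GAS2L3 was 2.09-fold lower in CPM and at −0.99 on the log2(CPM + 1) scale, and was not called. CDK1 was at 42.0 CPM, 2.79-fold lower (2.40 to 3.25) than in untreated cells, and CCNB1 at 74.2 CPM, 2.17-fold lower (1.94 to 2.44). PLK1 was 2.43-fold lower (34.6 CPM against 84.1 CPM), CCNA2 2.93-fold and AURKA 2.12-fold lower. UBE2C was 2.57-fold and CDC20 2.47-fold lower. CCNB2, at 32.4 CPM against 63.3 CPM, did not reach 2-fold. Of the 10 entry genes 7 did.

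The passenger complex (3 of 3, median log2 ratio −1.54), the kinesins (3 of 3, −1.46), cytokinesis genes (3 of 3, −1.31) and the nuclear envelope genes (2 of 2, −1.69) were lower throughout in persisters. On the log2(CPM + 1) scale LBR (−1.75), CDCA8 (−1.73), TMPO (−1.62) and KIF11 (−1.60) had the lowest ratios. In CPM, CDCA8 was 3.44-fold lower (2.78 to 4.31), LBR 3.42-fold lower (2.95 to 3.98, at 41.4 CPM against 142 CPM), KIF11 3.19-fold and TMPO 3.12-fold lower. LBR, nearest of the members to its untreated level at 4 µM dabrafenib, was thus among the lowest in osimertinib persisters. AURKB was at 29.7 CPM against 88.2 CPM, MKI67 at 81.5 CPM against 235 CPM, TPX2 at 82.7 CPM against 233 CPM and BIRC5 at 45.0 CPM against 119 CPM. Kinetochore genes were lower in 4 of 6 cases, chromosome structure genes in 4 of 7, checkpoint genes in 4 of 6 and spindle proteins in 6 of 12. CENPF was 1.71-fold lower (149 CPM against 255 CPM) and TOP2A 1.99-fold lower (75.4 CPM against 150.0 CPM). G2E3, RANGAP1 (the activator of the Ran GTPase), DLGAP5 and CDC25C were 1.58- to 1.70-fold lower, the ratios nearest to 1.

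Against cells adapted to the same 1.2 µM of osimertinib, persisters were 2-fold lower in 38 of 52 members and higher in 0, at a median of −1.20. Of all measured genes 4.26% were lower and 4.03% higher. NDC80, a kinetochore protein, was at 28.1 CPM in persisters, against 92.7 CPM in adapted cells (3.30-fold lower), ANLN, a scaffold of the cleavage furrow, at 82.3 CPM against 252 CPM (3.06-fold), and UBE2C at 63.8 CPM against 188 CPM (2.95-fold). CENPF was 2.59-fold lower (149 CPM against 386 CPM). CDK1 was 2.58-fold lower, CCNA2 2.76-fold, AURKB 2.77-fold, TOP2A 2.73-fold, MKI67 2.54-fold, TPX2 2.53-fold, AURKA 2.46-fold, BIRC5 2.34-fold, PLK1 2.19-fold and CCNB1 2.05-fold. CDC20 (1.82-fold) and CCNB2 (1.79-fold) did not reach 2-fold. RANGAP1 (1.38-fold), TUBB4B (1.42-fold), G2E3 and BUB3 (1.57-fold each) were nearest to the adapted level. Both comparisons of persisters use the same persister population. At a threshold of 3-fold the 3 counts of 43, 36 and 38 members became 14, 4 and 2. The share of all measured genes at 3-fold is not given, so these counts cannot be set against it.

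**Figure D3:**
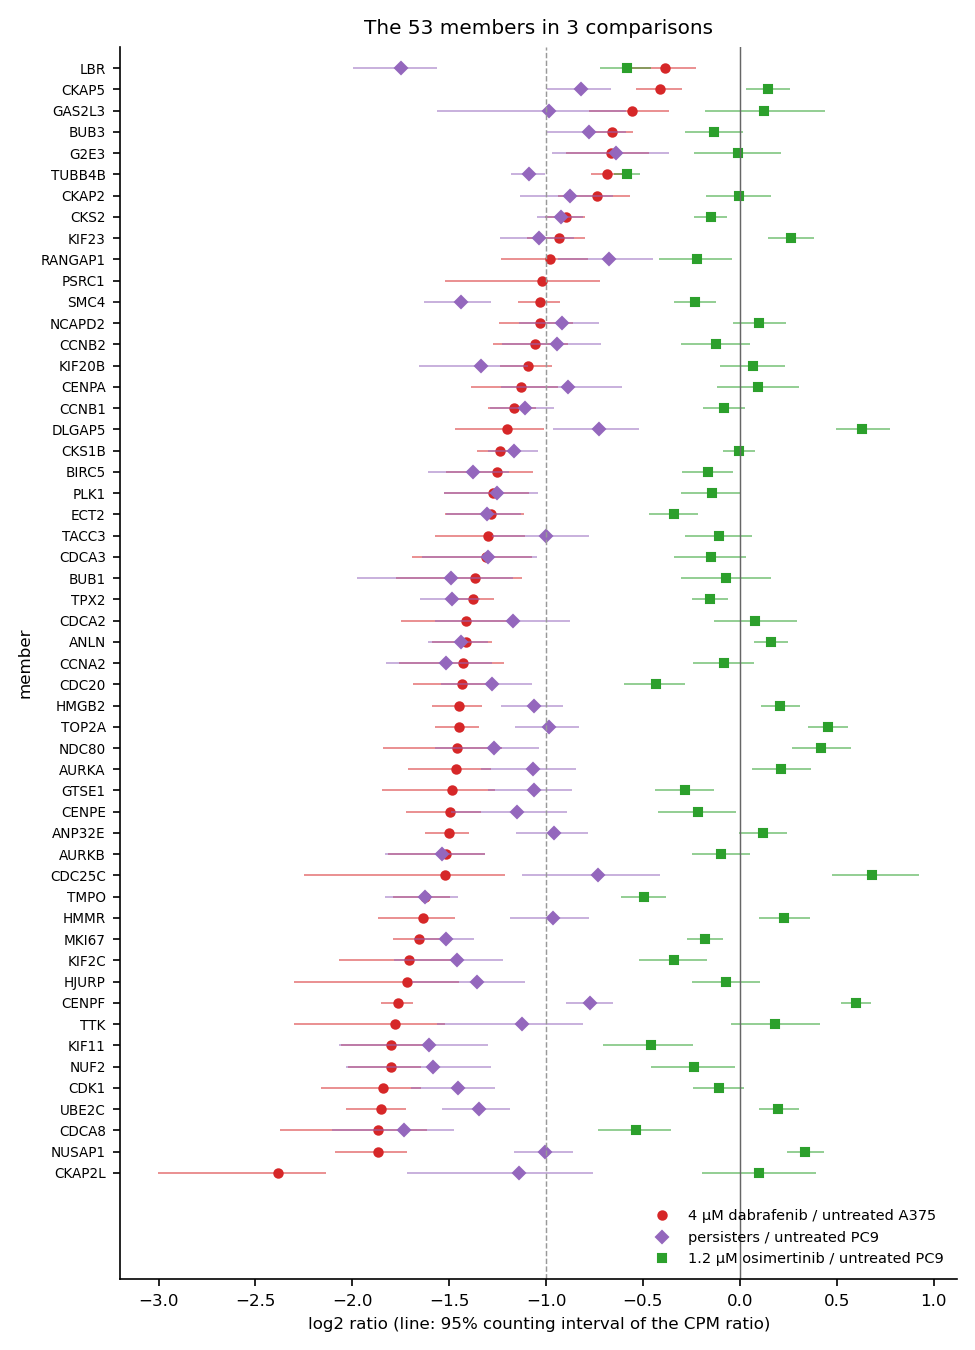
Log2 ratio of CPM + 1 (horizontal axis, with the counting interval of the CPM ratio as a line) of each measured member (vertical axis, ordered by its ratio at 4 µM dabrafenib), in 4 µM dabrafenib against untreated A375 cells, persisters against untreated PC9 cells and 1.2 µM osimertinib against untreated PC9 cells. Points of the first 2 comparisons lie below 0 for every measured member, and those at 1.2 µM osimertinib lie between −0.58 and 0.68.

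**Figure D4:**
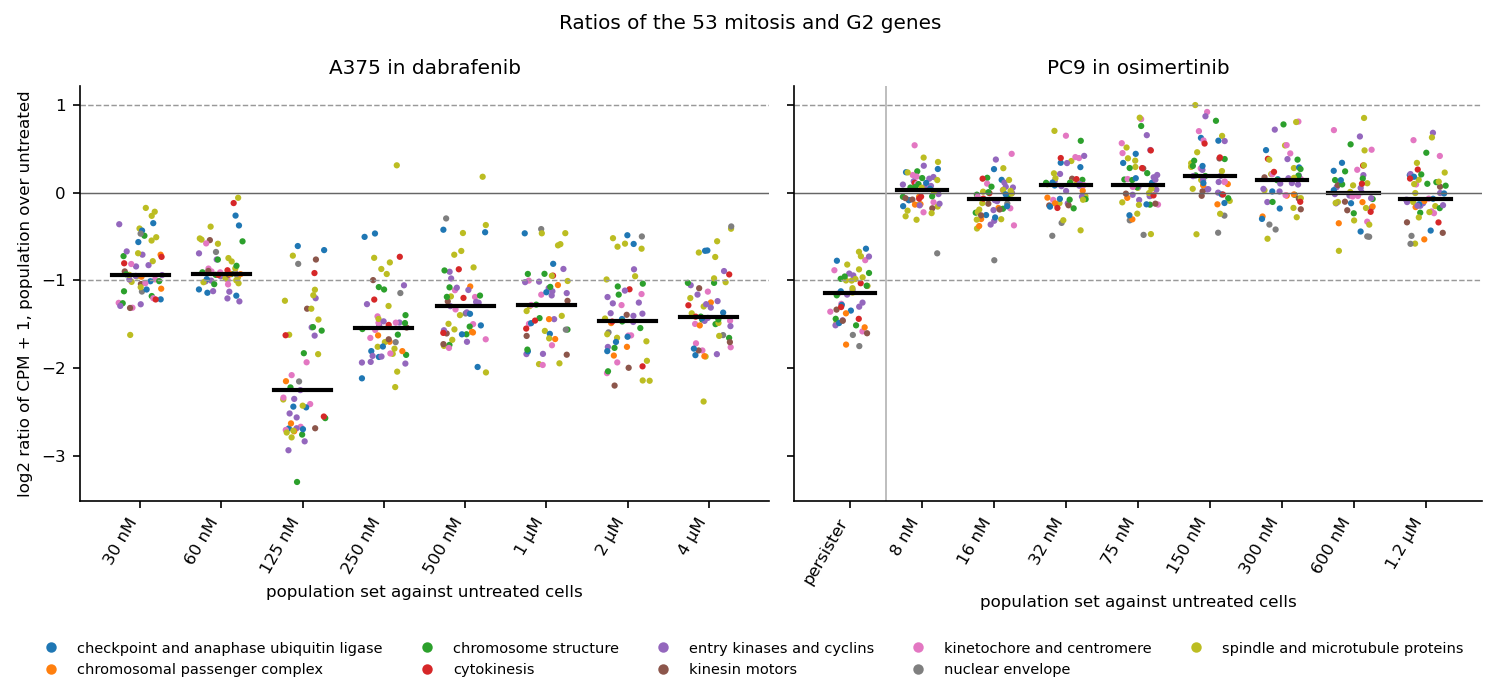
Log2 ratio of CPM + 1 to untreated cells of the same line (vertical axis) in each adapted population and in the persisters (horizontal axis), with 1 point per measured member coloured by role, a black bar at the median and dashed lines at the call threshold. The median lies between −2.25 and −0.93 in the adapted A375 populations, between −0.08 and 0.19 in the adapted PC9 populations, and at −1.15 in the persisters.

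How far these levels follow the number of cells with member RNA was looked at in single cells. Each cell was thinned to 4000 UMIs, which left out 659 A375 and 1260 PC9 shallower cells, and members with at least 1 UMI were counted per cell. The cells left out were 12.7% at 30 nM, 15.8% at 125 nM and 11.3% at 4 µM, against 2.98% of untreated A375 cells. In PC9 they were 21.3% of persisters and 9.79% at 1.2 µM, against 6.08% of untreated cells, and the shares below do not cover them. The share of cells with 3 or more members was 71.0% (67.3 to 74.6, exact binomial interval) at 4 µM dabrafenib, against 94.1% (93.0 to 95.1) in untreated A375 cells. At 30 nM it was 79.8% and at 125 nM 71.2%. In PC9 it was 68.4% (64.6 to 71.9) in persisters, 93.5% at 1.2 µM and 99.2% (98.5 to 99.6) in untreated cells. Without thinning the shares were 89.9% at 4 µM against 99.1% in untreated A375 cells, and 78.6% in persisters and 95.5% at 1.2 µM against 99.2% in untreated PC9 cells. Each table holds 1 cell line, so no share was taken in a cell type that lacks these genes. In cells listed in the authors' cell tables, whose name refers to G1, the thinned share was 77.5% in untreated A375 cells and 63.5% at 4 µM. It was 94.8% in untreated PC9 cells, 82.2% at 1.2 µM and 60.4% in persisters. A cell with 3 members is thus not necessarily a mitotic one.

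A stricter cut of 10 members separated the populations further. The share was 17.8% (14.8 to 21.0) at 4 µM and 5.64% (3.38 to 8.77) at 125 nM, against 61.4% (59.2 to 63.5) in untreated A375 cells. Persisters had 20.8% (17.8 to 24.2) and cells at 1.2 µM 58.6% (55.5 to 61.8), against 76.5% (74.1 to 78.9) in untreated PC9 cells. The adapted PC9 share was highest at 150 nM (67.1%), still under the untreated one, although the summed member level at 150 nM was 7074 CPM against 6040 CPM. At 4 µM, 24 of 625 thinned cells had 8 or 9 members and 17 had 10 or 11, against 146 and 145 of 1951 in untreated A375 cells. In persisters 23 and 14 of 648 cells lay there, against 113 and 130 of 1235 in untreated PC9 cells, so in the untreated populations many cells lie near this cut. A median thinned cell had 4 member UMIs at 4 µM, against 17 in untreated A375 cells, and 4 in persisters and 17 at 1.2 µM, against 19 in untreated PC9 cells.

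**Figure D5:**
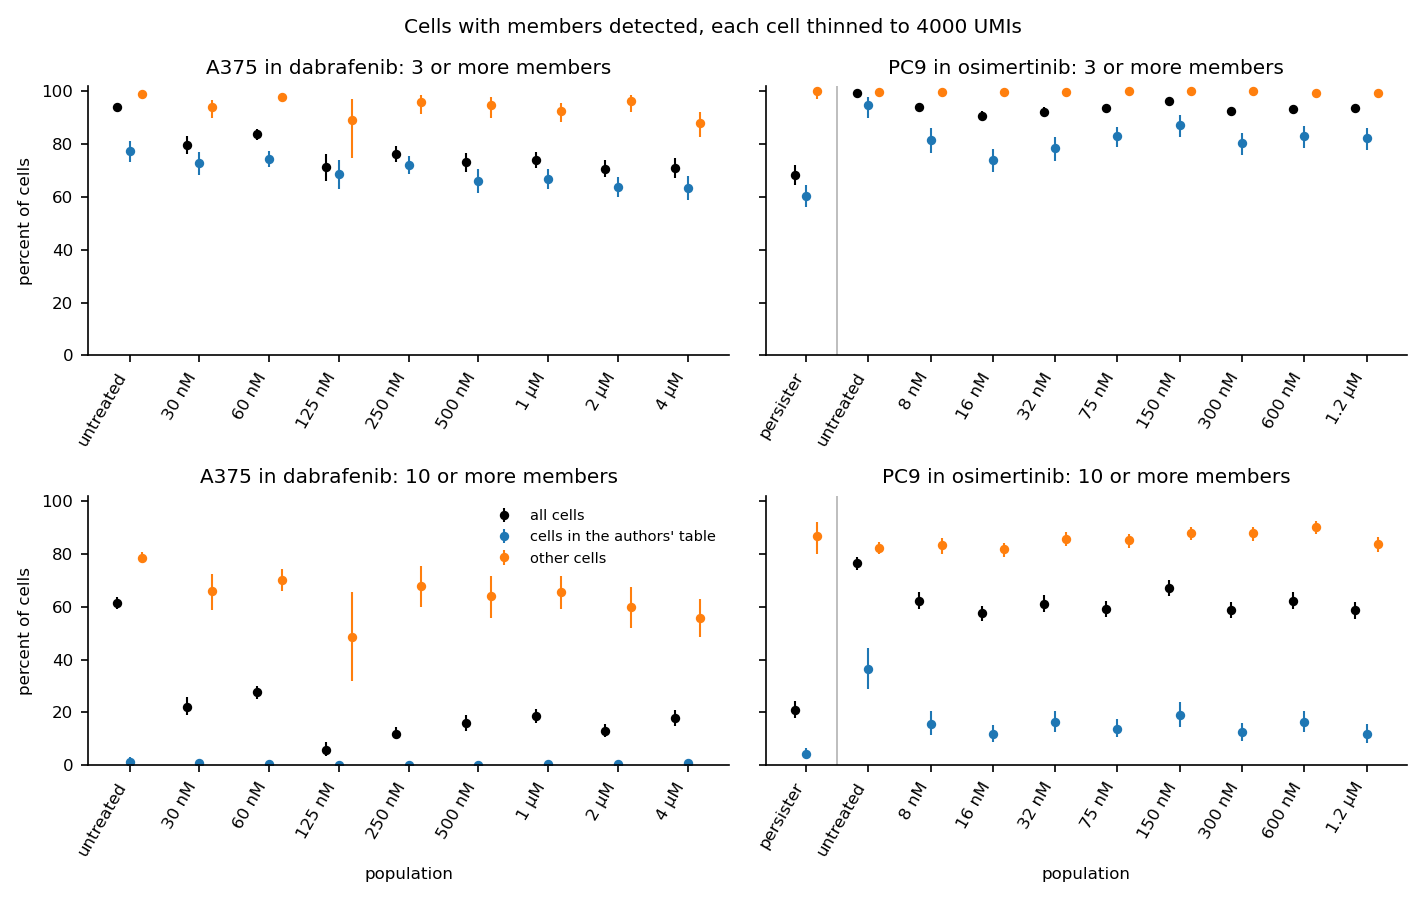
Share of thinned cells in percent (vertical axis) with at least 3 and at least 10 members detected, by population (horizontal axis), with exact binomial intervals as lines, for all cells (black), cells in the authors' cell tables (blue) and other cells (orange). Over all cells, persisters (68.4%) and 4 µM dabrafenib cells (71.0%) have similar shares at 3 members, against 99.2% and 94.1% in the untreated cells of their lines.

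The authors' cell tables list part of the cells, under a name that refers to G1, and how those cells were chosen is not stated. Genes of this kind are commonly used to call the phase, and if they were, their low level in listed cells was set by that choice, so the split is given as a description. Listed cells were 64.5% of cells at 4 µM dabrafenib, against 22.0% of untreated A375 cells, and between 62.4% and 81.2% at the other doses. In PC9 they were 81.8% of persisters and 36.8% of cells at 1.2 µM, against 12.9% of untreated cells. All 53 members were higher in unlisted than in listed untreated cells of both lines. In A375 the log2 difference ran from 0.93 for RANGAP1 to 4.68 for TOP2A. In PC9 it ran from 0.23 for CDC20 to 3.29 for CDK1, and CCNB1 (0.26), LBR (0.33) and CCNB2 (0.36) were near the low end, where A375 had 3.13 for CCNB1 and 3.17 for CDC20. Listed untreated PC9 cells thus held 137 CPM of CCNB1, against 164 CPM in unlisted ones. After thinning, listed cells with 10 or more members were 36.4% in untreated PC9 cells and 0% to 1.38% in the A375 populations. Without thinning they were 52.7% in untreated PC9 cells and 12.1% to 30.5% in the A375 populations, so the low A375 shares hold for cells thinned to 4000 UMIs.

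Within unlisted cells the 2 lines went different ways. The members summed to 4651 CPM in unlisted cells at 4 µM dabrafenib, against 7210 CPM in unlisted untreated A375 cells. There 7 of 53 members were 2-fold lower, against 5.31% of all measured genes, and the member median was −0.63. At 30 nM 0 of 53 were, with a median of −0.21 (3.22% of all genes). In PC9 the sum in unlisted cells was 8047 CPM in persisters and 7828 CPM at 1.2 µM, against 6437 CPM in untreated cells. Of 52 measured members 0 were 2-fold lower in unlisted persisters against untreated cells (3.98% of all genes), with a median of 0.34, and 0 against 1.2 µM (1.46% of all genes), with a median of 0.02. CDK1 stood at 165 CPM in unlisted persisters, against 129 CPM in unlisted untreated PC9 cells, and CCNB1 at 226 CPM, against 164 CPM. CENPF was at 488 CPM in unlisted persisters and 517 CPM at 1.2 µM, against 272 CPM in untreated cells. LBR kept its direction there, at 81.9 CPM in persisters, against 145 CPM in untreated cells.

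Within listed cells the members summed to less than in unlisted cells of the same population, in all 19 populations, and fewer members reached the minimum. In A375 the sum was 969 CPM at 4 µM and 960 to 1089 CPM at the other doses, against 1192 CPM in untreated cells. Of the 26 members measured at 4 µM 4 were 2-fold lower (8.99% of all genes), with a median of −0.21, and of 27 at 30 nM 2 were (5% of all genes), with a median of −0.04. In PC9 the listed sum was 1049 CPM in persisters and 1658 to 2020 CPM in adapted cells, against 2731 CPM in untreated cells. Of the members measured in listed cells, 26 of 38 were 2-fold lower in persisters (8.65% of all genes), 13 of 40 at 1.2 µM (6.25%) and 10 of 38 at 8 nM (3.12%). The medians were −1.38, −0.60 and −0.70. Against 1.2 µM, 7 of 40 were lower in listed persisters (2.75% of all genes), with a median of −0.72. Listed untreated PC9 cells, 169 in number, were the common reference of 3 of these counts and carried the highest listed sum of the series.

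Cells were also split without use of any member. Those with at least 5 of the 59 other G2 and mitosis genes were 35.4% at 4 µM, against 82.1% of untreated A375 cells. Members summed to 4389 CPM in such cells at 4 µM, against 6764 CPM in untreated cells, and to 910 CPM against 1247 CPM in the remaining cells. In PC9 such cells were 38.3% of persisters and 80.4% at 1.2 µM, against 95.9% of untreated cells. There the members summed to 4926 CPM in persisters and 6562 CPM at 1.2 µM, against 5812 CPM in untreated cells. In the cells under that cut the sums were 838 and 1150 CPM, against 1730 CPM in untreated ones. Both the share of such cells and the summed member level over them were lower at 4 µM dabrafenib and in persisters. The cut took in most untreated cells of both lines, so these sums are not levels of G2 or mitotic cells alone. For persisters the lower sum differs in direction from the split by the authors' cell table, where the sum in unlisted cells was above that of untreated ones.

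The members varied among themselves in a way that both lines shared in part. Across the 53 genes the difference between unlisted and listed untreated PC9 cells and the log2 ratio at 4 µM dabrafenib had a Pearson correlation of −0.55 (Spearman −0.57). The same difference in A375 against the ratio in persisters gave −0.35 (−0.34), and the differences of the 2 lines against each other 0.57 (0.56). Ratios at 4 µM and in persisters correlated at 0.34 (0.37). No population enters both sides of any of these, but genes are not independent replicates and low levels make ratios noisier, so the values only describe these cultures.

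Other genes of the pathway moved with the members. Of the 59 other G2 and mitosis genes, 48 of 57 measured were 2-fold lower at 4 µM dabrafenib (8.89% of all measured genes), with a median of −1.45. In persisters against untreated cells 40 of 59 were (9.63% of all measured genes), with a median of −1.18. SKA3, a kinetochore protein, was 4.85-fold lower at 4 µM (6.94 CPM against 33.6 CPM) and 4.69-fold lower in persisters (5.50 CPM against 25.8 CPM). CIT, a cytokinesis kinase, was 4.52-fold and NCAPG, a condensin subunit, 4.32-fold lower at 4 µM, and ESPL1 (separase) 5.07-fold and TRIP13 3.77-fold lower in persisters. KIF18A, a kinesin that limits chromosome movement, was at 36.7 CPM at 4 µM, against 30.9 CPM in untreated cells. At 30 nM dabrafenib KIF18B (3.12-fold), KIF14 (3.08-fold) and SKA3 (3.02-fold) were the lowest, while KIF18A was at 32.4 CPM against 30.9 CPM. WEE1, the kinase that restrains CDK1, was at 24.2 CPM in persisters, against 20.4 CPM, with an interval of the ratio that included 1. At 1.2 µM osimertinib JPT1 was the only 2-fold lower gene of 59 (398 CPM against 897 CPM), where 3.86% of all measured genes were lower. There ARL6IP1 (1.78-fold), DEPDC1 (1.77-fold) and ASPM, a spindle pole protein (1.58-fold), were the highest. Against cells adapted to 1.2 µM, persisters were lowest for KIF18B (3.96-fold), SPC24 (3.79-fold) and FAM83D (3.52-fold).

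S-phase genes, whose products copy the DNA, were set beside the members. Of 41 in the list, 33 of 40 measured were 2-fold lower at 4 µM dabrafenib (8.89% of all measured genes), with a median of −1.57. In persisters against untreated cells 38 of 39 were (9.63% of all measured genes), with a median of −1.72. At 1.2 µM osimertinib 1 of 39 was (3.86% of all measured genes), yet the median was −0.48, beside −0.08 for the members. In unlisted cells at 1.2 µM the medians were −0.20 for S-phase genes and 0.26 for the members. The difference between the 2 lists was not tested.

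The genes most like the members by level over the populations were found by correlating log2(CPM + 1) with the mean of the measured members. In A375, over 9 populations and 7547 genes that reached 25 CPM, GINS1 (0.99), a subunit of the replicative helicase, came first, followed by TCP1, RPA3, KNSTRN, MCUR1, PTMA, SRSF3, HMGN2, RANBP1 and FANCD2. GINS1 ranged from 4.76 CPM to 34.4 CPM, the untreated level. In PC9, over 10 populations and 7113 genes, NUCKS1 (0.99), HMGB3, H2AFX, MZT2B, WWOX, CENPK, CBFB, BSG, NAP1L4 and TUBA1B led. H2AFX, the histone variant H2A.X, ranged from 16.5 to 64.8 CPM. Populations far from the rest weigh most in such a correlation, which in PC9 are the persisters. In A375 they are untreated cells, where members summed to 6049 CPM, and 125 nM, at 1604 CPM. The other doses lay between 2327 and 3412 CPM.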

How the data were processed

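Single-cell expression libraries of an A375 pool (sequenced in 2 runs, which the cell names do not separate) and a PC9 pool were analysed. As deposited, a table gives whole UMI counts for each gene in each cell, which the labels describe as expression counts, and the suffix of each cell name gives the population. The A375 suffix T05 has no label of that spelling and was read as T0500, so all 500 nM values rest on that match. Cell Ranger 7.0.0 and GRCh38 are named in the submitters' processing notes, and further filters are not given in the sources used here. The authors' cell tables list 5059 A375 and 4208 PC9 cells with total counts and the percent of mitochondrial UMIs, per the file headers. Those totals matched the count tables in every listed cell, and 27 cell barcodes occur in both tables.

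All cells were used, and no doublet caller was run. UMIs were summed per population and scaled to CPM over all UMIs. Ratios are of log2(CPM + 1), folds compare CPM directly and carry an exact binomial 95% interval for counting error, and a call is a difference of 1 or more on log2(CPM + 1), a 2-fold ratio, for a gene that reached 10 CPM and 20 UMIs in whichever population was higher. The calculation was tested on simulated data. Shares of cells have Clopper-Pearson intervals. The main comparisons set the lowest and the top dose against untreated cells in each line, and persisters against untreated cells and against 1.2 µM osimertinib. The named genes were 14 followed in every comparison, the 4 lowest and 4 highest members of each main comparison, the 3 lowest and 3 highest of the other G2 and mitosis genes, and the 10 genes most correlated with the members. Other members and GAS2L3 by dose were named after their values were seen. The members and gene lists were chosen with earlier results of these data known. Alternatives changed the pseudocount, minimum, threshold, scaling (edgeR 4.0.16 TMM factors), cell weighting, cell filters and depth. Calculations used Python 3.11.15, numpy 2.4.6, scipy 1.17.1, pandas 2.3.3, matplotlib 3.10.9 and R 4.3.3.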

Additional observations from a re-analysis of the deposited data

Results flagged for a closer look

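In all, 3 members differed in direction between the lines at the top dose, each by more than 1.5-fold. The log2 ratio of CENPF was −1.764 at 4 µM dabrafenib against untreated A375 cells and 0.5973 at 1.2 µM osimertinib against untreated PC9 cells. CDC25C had −1.524 in A375 and 0.6812 in PC9, and DLGAP5 −1.203 in A375 and 0.6285 in PC9. In listed cells alone CENPF was at −0.26 at 1.2 µM osimertinib, a ratio given without a counting interval. DLGAP5 was also lower there, at 27.6 CPM at 1.2 µM against 45.1 CPM in listed untreated cells. CDC25C was at 11.4 CPM against 5.31 CPM. Of the 40 members measured in listed cells 0 had a counting interval above 1, so this difference was within counting error. Each value is from 1 culture per population, the lines were given different drugs, and the difference between the lines was not tested. Listed cells were 64.5% of the 4 µM and 36.8% of the 1.2 µM population.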

How the results depend on the processing

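Of 169 alternative values for comparisons and shares 124 stayed within 1.5 times the count or within the counting interval, 45 moved, and 0 reversed. A 3-fold threshold gave 14 lower members at 4 µM dabrafenib, 1 at 30 nM, 4 in persisters against untreated cells and 2 against 1.2 µM. These 3-fold counts have no share of all measured genes beside them. At 2-fold, listed cells gave 4 of 26 measured members at 4 µM (8.99% of all measured genes) and 2 of 27 at 30 nM (5%). They gave 13 of 40 at 1.2 µM osimertinib (6.25%), 10 of 38 at 8 nM (3.12%) and 7 of 40 in persisters against 1.2 µM (2.75%). Unlisted cells gave 7 of 53 at 4 µM (5.31%), 0 of 53 at 30 nM (3.22%) and 0 of 52 in both persister comparisons (3.98% and 1.46%). At 30 nM, a pseudocount of 5 CPM gave 13, the mean over cells 37, and leaving out cells of more than 2 times the median UMIs 36, again without a share of all measured genes. The share of cells with 3 members, without thinning, was 88.9% at 30 nM and 89.9% at 4 µM against 99.1% in untreated A375 cells, and 78.6% in persisters and 95.5% at 1.2 µM. Thinned to 3000 UMIs it was 64.4% and 59.9% against 89.6%, and 53.3% and 87.5% against 97.6% in untreated PC9 cells. At 5 members it was 47.1% and 39.2% against 82.6%, and 40.6% and 80.9% against 95.5%, and at 10 members 22.2% and 17.8% against 61.4%, and 20.8% and 58.6% against 76.5%. In listed cells it was 72.8% and 63.5% against 77.5%, and 60.4% and 82.2% against 94.8%. The cause of these moves was not tested, apart from fewer or shallower cells and stricter cuts where the setting makes them.

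Of 931 alternative values of named genes 685 stayed, 230 moved and 16 reversed, where reversed means that a value past 2-fold changed sign, and 21 further values fell below the minimum and were left out. All 16 were in unlisted cells of the persister comparisons. Against untreated cells these log2 ratios were CDK1 0.34, CCNB1 0.46, CCNA2 0.17, PLK1 0.43, AURKA 0.55, AURKB 0.096, CDC20 0.36, UBE2C 0.39, MKI67 0.28, BIRC5 0.043 and TPX2 0.13. Against 1.2 µM they were CDK1 0.13, CCNB1 0.20, PLK1 0.22, AURKA 0.018 and MKI67 0.081. In that comparison 5 of 52 member intervals lay above 1 and 3 below it. A changed sign alone is thus not a difference beyond counting error. Values under 2-fold changed sign in 24 cases in unlisted cells, 12 in listed cells, 5 after thinning and 1 with TMM factors. In unlisted persisters against untreated cells these were CENPF (0.84), TOP2A (0.78) and CCNB2 (0.41), and against 1.2 µM CDC20 (0.50) and CCNB2 (0.24). With TMM factors the member median at 4 µM was −1.29 and that of all genes −0.04. No paired analysis was possible because each population is 1 culture. Levels under 1.02 CPM cannot be told from 0 at 125 nM.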
